A study of Mus musculus with 12 samples.

Results

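The interferon regulatory factors (IRFs) are a family of transcription factors, and 8 of their genes were followed here in CD4+ T cells: Irf1, Irf2, Irf3, Irf4, Irf5, Irf7, Irf8 and Irf9. They were taken by gene symbol from the 23991 gene names listed in each of 12 RNA-seq files, and all 8 were expressed above the filter on low values, at 1 FPKM or more in at least 3 libraries, as were 10126 genes in all. FPKM counts fragments per kilobase of transcript and scales them to the mapped fragments of the library, so levels can be set side by side between genes. The donors were male mice of the C57BL/6 strain, 8 to 10 weeks old, either wild type (WT) or Adcy10-/-, and CD4+ cells were enriched from their spleens or lymph nodes by removing other cells on magnetic beads. The product of Adcy10 is soluble adenylyl cyclase, which makes cyclic AMP inside the cell, and the series set out to compare the genotypes during Th17 differentiation in culture. Each genotype was kept in baseline medium or in baseline medium with polarizing cytokines, giving 4 groups of 3 libraries: WT baseline, Adcy10-/- baseline, WT with cytokines and Adcy10-/- with cytokines. The culture protocol, which is the same text for all samples, lists plates coated with anti-CD3 at 10 µg/mL, anti-CD28 at 2 µg/mL, IL-1β at 20 ng/mL, IL-6 at 25 ng/mL, IL-23 at 20 ng/mL and, against Th1 and Th2 development, antibodies to IFN-γ and IL-4 at 1 µg/mL each, with collection at 18 hours. It does not say which of these additions baseline medium lacked. The labels do not say whether the replicates were separate mice or cultures, so each p-value reflects the spread among these libraries alone, which may be technical.

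IRF proteins share an amino-terminal DNA-binding domain that recognizes GAAA-containing sites, the interferon-stimulated response elements (ISREs). IRF3 and IRF7 are activated by innate sensors and switch on type I interferon genes, IRF9 is the DNA-binding part of the ISGF3 complex that answers type I interferon, and IRF1 is induced by IFN-γ and drives antigen presentation and GTPase genes. IRF4 is induced by the T cell receptor and, with BATF and JUN proteins, opens Th17 genes, while IRF8 and IRF5 are best known from dendritic cells, macrophages and B cells.

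The promoters of Irf1, Irf8 and Irf2 are shown because these 3 genes, of the 8, held a match to an interferon or cytokine response motif near a start site. RefSeq promoters on GRCm38.p6 (250 bases before to 50 after a start) matched all 8 genes, with 11 start sites in all. Both strands were searched for the STAT motif GAS (TTCNNNGAA), the ISRE (GAAA, any 2 bases, GAAA) and the NF-kB motif (GGG, any 2 bases, TTTCC). The 250 bases before the start, 5′ to 3′ on the plus strand, are chr11:53769764-53770013 for Irf1, chr8:120736108-120736357 for Irf8 and chr8:46739495-46739744 for Irf2. Capitals mark the motif matches.
Irf1: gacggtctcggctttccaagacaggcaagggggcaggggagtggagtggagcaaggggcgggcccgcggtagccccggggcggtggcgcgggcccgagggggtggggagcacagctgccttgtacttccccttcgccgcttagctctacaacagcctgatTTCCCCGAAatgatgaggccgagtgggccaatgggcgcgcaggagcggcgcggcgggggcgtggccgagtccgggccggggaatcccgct
Irf8: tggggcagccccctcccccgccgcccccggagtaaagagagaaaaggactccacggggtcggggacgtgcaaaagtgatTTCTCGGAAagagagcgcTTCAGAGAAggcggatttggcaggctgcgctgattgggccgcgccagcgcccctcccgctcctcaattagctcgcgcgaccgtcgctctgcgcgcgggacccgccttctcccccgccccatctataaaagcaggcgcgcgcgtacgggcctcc
Irf2: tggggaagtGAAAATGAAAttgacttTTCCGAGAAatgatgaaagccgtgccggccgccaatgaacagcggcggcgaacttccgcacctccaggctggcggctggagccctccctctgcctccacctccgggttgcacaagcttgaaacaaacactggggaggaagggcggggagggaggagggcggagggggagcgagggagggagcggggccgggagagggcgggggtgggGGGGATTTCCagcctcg
The Irf1 promoter held a GAS motif, TTCCCCGAA, 90 to 82 bases before the start. The Irf8 promoter held a pair of GAS motifs, TTCTCGGAA at 171 to 163 bases and TTCAGAGAA at 153 to 145 bases before the start. The Irf2 promoter held the ISRE match GAAAATGAAA at 241 to 232 bases, the GAS match TTCCGAGAA at 224 to 216 bases and the NF-kB match GGGGATTTCC at 17 to 8 bases before the start. Of all 32851 promoters of the same length, 8.3% held a GAS match, 3.44% an ISRE match and 1.63% an NF-kB match. The windows of Irf3, Irf4, Irf5, Irf7 and Irf9, and those of the other start sites of Irf1 and Irf8, held no match to the 3 motifs. These matches describe letters in the promoters, and binding was not measured.

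FPKM summed to between 547870 and 594750 per library, and libraries of a group correlated at 0.994 to 0.997 over genes on the log scale. The files give no read counts, but the FPKM that 1 read is worth in genes below 0.15 FPKM put the libraries at 0.78 to 1.09 of the depth of the median library. Adcy10 itself was listed at 0 FPKM in all 12 libraries, which gives no check of the genotypes. The first principal component (34.3% of the variance) separated the media, and the next (22.6%) separated the 4 libraries numbered 1 from those numbered 2 and 3. CD4 T cell markers were abundant throughout: the 8 of 9 listed genes found in the files summed to 1661 to 2103 FPKM. The 7 B cell markers, all detected, summed to 2.02 to 7.95 FPKM in the libraries numbered 1 and to 24.8 to 52.0 FPKM in the other 8. None of the 7 was at 0 in all libraries. In bulk RNA of this kind, fewer cells of a type and less RNA per cell cannot be told apart.

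In WT cells in baseline medium the 8 genes spanned a wide range of levels. Irf4 stood at 142 ± 21.8 FPKM (SD, n = 3 here and below), Irf1 at 136 ± 8.82 FPKM and Irf8 at 133 ± 40.3 FPKM, and the libraries of these 3 genes overlapped. Irf3 followed at 42.7 ± 1.58 FPKM, Irf2 at 30.3 ± 4.999 FPKM and Irf9 at 18.4 ± 4.06 FPKM, each apart from its neighbours in every library. Irf5 at 7.91 ± 3.56 FPKM and Irf7 at 5.38 ± 1.25 FPKM were lowest and overlapped each other. With cytokines the 3 leading genes came apart in both genotypes, in the order Irf4, Irf1, Irf8, without overlap between neighbours. In Adcy10-/- cells at baseline Irf1 (153 ± 9.35 FPKM) stood above Irf4 (137 ± 1.90 FPKM) in every library, and Irf4 overlapped Irf8. The order from Irf3 through Irf2 to Irf9 held in all 4 groups.

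**Figure D1:**
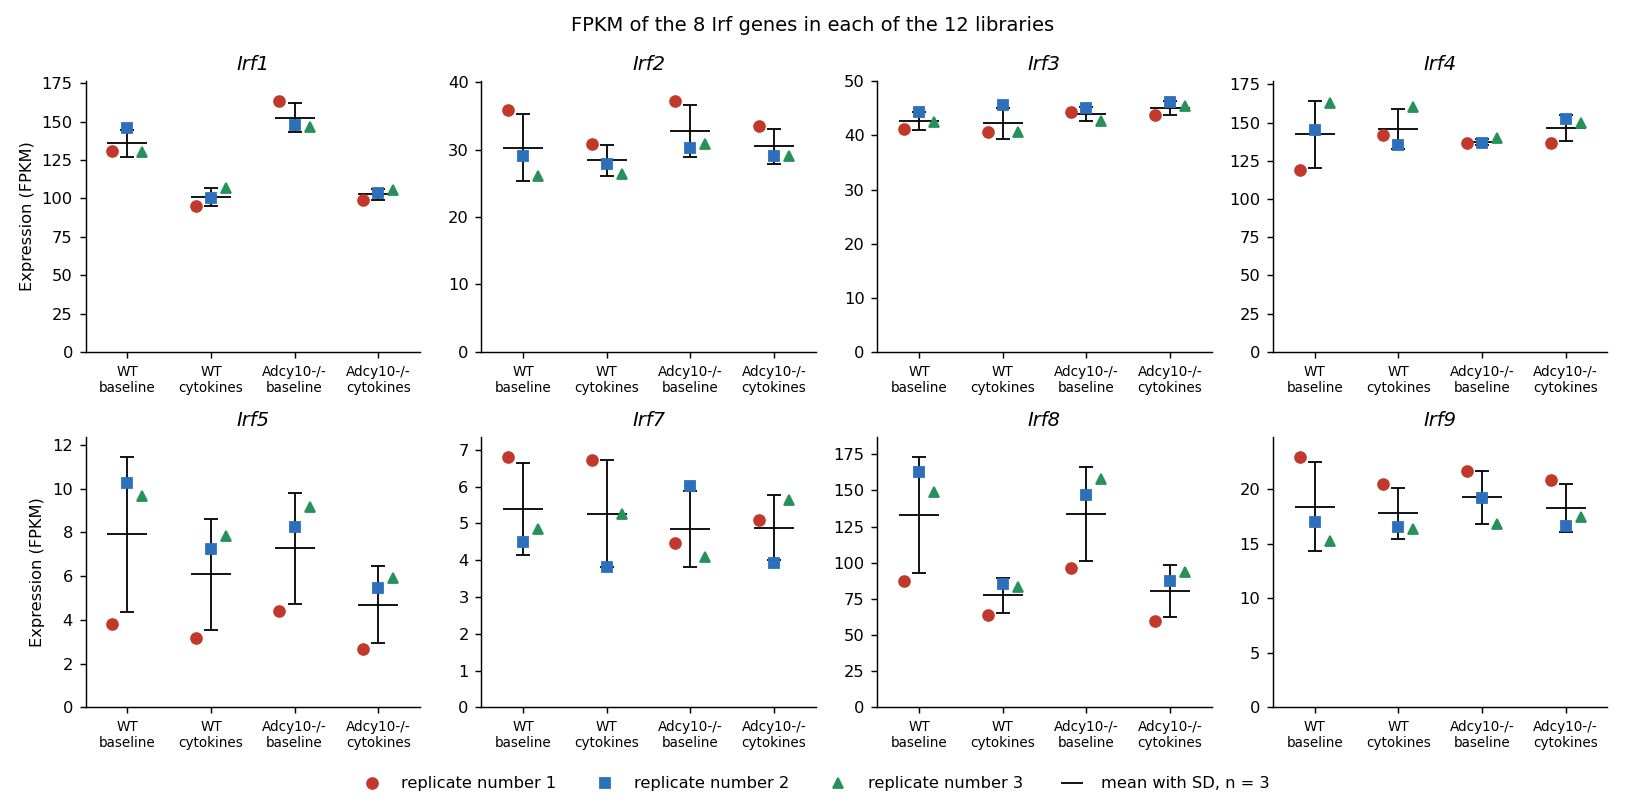
FPKM (vertical axes, from 0) of the 8 Irf genes in each of the 12 libraries by group, with symbols for replicate number and a bar for the mean and SD of 3 libraries. Irf1 and Irf8 were lower in every library with cytokines than in any baseline library of the same genotype, and Irf5 was lowest in the library numbered 1 of every group.

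The first question was how the IRF genes differed between medium with polarizing cytokines and baseline medium in each genotype. Whether baseline medium also held the antibodies to IFN-γ and IL-4 is not stated. Here and below, an effect of these antibodies therefore cannot be told apart from that of the cytokines. Irf1 fell in both genotypes. Irf8 and Irf5 fell in both once libraries of the same replicate number were compared with each other, and Irf2, Irf3, Irf4, Irf7 and Irf9 did not pass the test in either fit. Changes are differences of log2(FPKM + 1), which understate those of low genes, tested with limma over all 10126 genes. Without a term for the replicate number, 1 of the 8 genes was lower in WT cells, where 2.28% of all genes were lower and 4.93% were called in either direction, and the same gene was lower in Adcy10-/- cells, where these shares were 2.12% and 4.27%. Libraries of the same number and genotype deviated together (correlations 0.294 to 0.536 over 6 pairs), so the fit with the replicate number as a block is given beside these results. With it, 3 of 8 genes were lower in each genotype, against 7.43% of all genes in WT and 5.98% in Adcy10-/- cells (14.8% and 10.7% in either direction). With the block set within each genotype the count was again 3 of 8, against 7.5% and 6.37% lower (15.5% and 11.8% in either direction). Libraries of Irf1 and Irf8 did not overlap between media in either genotype, as was the case for 20.8% of all genes in WT and 21.6% in Adcy10-/- cells.

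Irf1 encodes the IRF that maintains class I antigen presentation and restrains cell growth. In WT libraries 1, 2 and 3 it stood at 131, 146 and 131 FPKM at baseline and at 95.3, 100.3 and 107 FPKM with cytokines. In Adcy10-/- libraries it stood at 163, 148 and 146 FPKM at baseline and at 98.7, 104 and 105 FPKM with cytokines. The media did not overlap within a genotype, as was so for 20.8% of all genes in WT and 21.6% in Adcy10-/- cells. In WT cells Irf1 fell by 0.43 on the log2 scale (SE 0.06, 95% interval -0.57 to -0.29, limma adjusted p = 0.00383), from 136 ± 8.82 to 101 ± 5.86 FPKM. In Adcy10-/- cells it fell by 0.57 (SE 0.06, 95% interval -0.71 to -0.43, limma adjusted p = 0.000662), from 153 ± 9.35 to 103 ± 3.52 FPKM. Within replicate numbers the log2 difference ran from -0.54 to -0.28 in WT cells and from -0.72 to -0.47 in Adcy10-/- cells. Without the 4 libraries numbered 1, a choice made after the data had been seen, Irf1 was still called lower in both genotypes (limma adjusted p = 0.0138 and 0.0097), where 1.51% and 1.11% of all genes were called lower and 3.74% and 2.19% in either direction.

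Irf8, a lineage factor of dendritic cells and B cells that T cells also express after activation, had the widest change in FPKM of the 8 genes. In WT libraries 1, 2 and 3 it stood at 87.1, 163 and 149 FPKM at baseline and at 63.7, 85.2 and 83.6 FPKM with cytokines. In Adcy10-/- libraries it stood at 96.4, 147 and 158 FPKM at baseline and at 59.8, 87.2 and 93.8 FPKM with cytokines. The groups did not overlap within a genotype, and the library numbered 1 was the lowest in each group. The spread between numbers left the change short of the threshold without a block: -0.73 in WT cells (SE 0.26, limma adjusted p = 0.139) and -0.72 in Adcy10-/- cells (SE 0.26, limma adjusted p = 0.17). With that block Irf8 fell by the same amounts, with an SE of 0.08 and limma adjusted p-values of 0.00051 and 0.000529. Without WT baseline library 1 alone, the WT change was -1.01 and passed without a block (limma adjusted p = 0.038). Within replicate numbers 1, 2 and 3 the log2 difference was -0.44, -0.93 and -0.83 in WT cells and -0.68, -0.74 and -0.75 in Adcy10-/- cells. Without the libraries numbered 1 and without a block, Irf8 was called lower in both genotypes: it decreased by 0.88 in WT cells (limma adjusted p = 0.000725) and decreased by 0.74 in Adcy10-/- cells (limma adjusted p = 0.00135).

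Irf5, a factor of inflammatory cytokine genes in myeloid and B cells, was expressed at low level. In WT libraries 1, 2 and 3 it stood at 3.81, 10.2 and 9.66 FPKM at baseline and at 3.17, 7.25 and 7.85 FPKM with cytokines. In Adcy10-/- libraries it stood at 4.40, 8.26 and 9.16 FPKM at baseline and at 2.67, 5.45 and 5.93 FPKM with cytokines. The groups overlapped, with the 4 libraries numbered 1 at 2.67 to 4.40 FPKM and the other 8 at 5.45 to 10.2 FPKM. Without a block the change was -0.31 in WT cells (SE 0.40, limma adjusted p = 0.744) and -0.54 in Adcy10-/- cells (SE 0.40, limma adjusted p = 0.621). Leaving out 1 library in that fit gave -0.70 (without WT baseline library 1) to 0.04 (without WT cytokine library 1) in WT cells. It gave -0.82 (without Adcy10-/- baseline library 1) to -0.25 (without Adcy10-/- cytokine library 1) in Adcy10-/- cells. With the replicate block Irf5 fell by 0.31 in WT cells (SE 0.08, limma adjusted p = 0.0287) and by 0.54 in Adcy10-/- cells (SE 0.08, limma adjusted p = 0.00241), and it was lower with cytokines in 3 of 3 numbers of each genotype. Without the libraries numbered 1 and without a block, the WT change of -0.36 did not pass (limma adjusted p = 0.0651) and the Adcy10-/- change of -0.54 did (limma adjusted p = 0.0199).

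**Figure D2:**
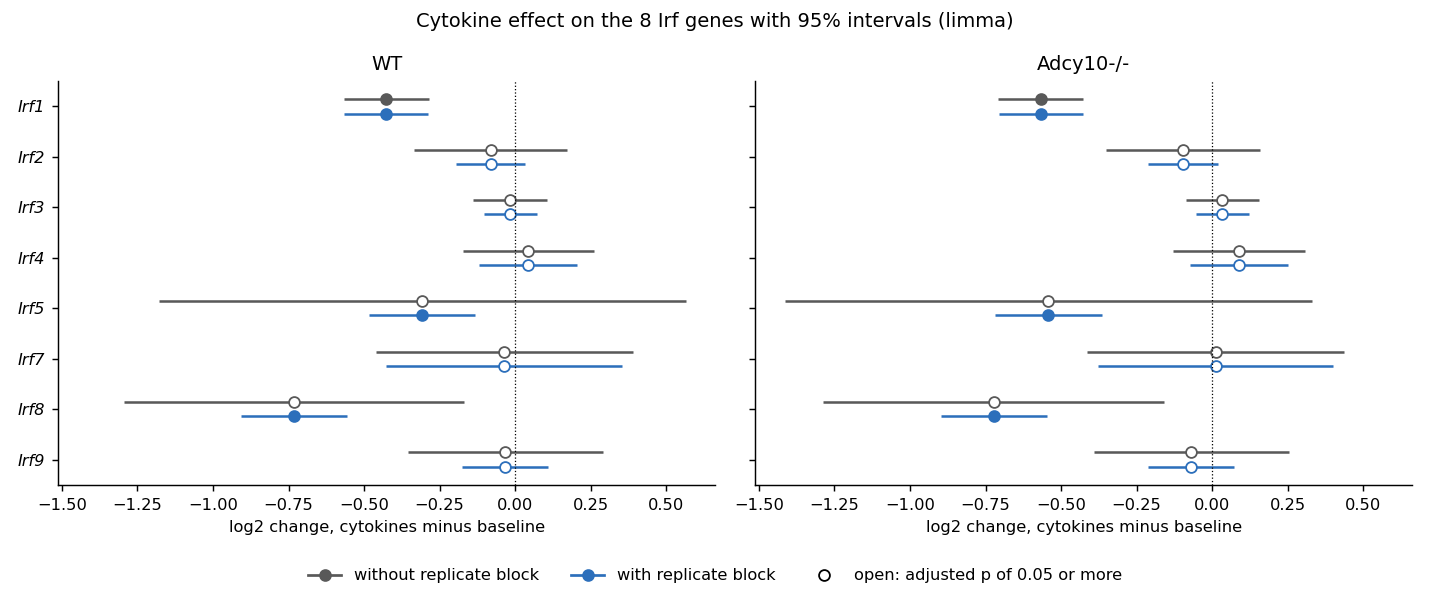
Log2 change from baseline to cytokines (horizontal axis) of the 8 Irf genes in WT (left) and Adcy10-/- cells (right), with 95% intervals from limma without (grey) and with (blue) the replicate block and filled points where the adjusted p is under 0.05. The point estimates are the same in both fits, and the intervals of Irf8 and Irf5 are narrower with the block.

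B cell markers differed between the same libraries as Irf8 and Irf5 did. In WT libraries 1, 2 and 3 the B cell sum went from 2.02, 52.0 and 37.0 FPKM at baseline to 2.74, 39.6 and 34.6 FPKM with cytokines. In Adcy10-/- libraries it went from 7.95, 30.4 and 32.7 FPKM to 5.44, 24.8 and 29.5 FPKM. The B cell sum was lower with cytokines in every same-numbered pair except the WT libraries numbered 1, where it was 2.02 and 2.74 FPKM. In that pair Irf8 went from 87.1 to 63.7 FPKM and Irf5 from 3.81 to 3.17 FPKM. Macrophage and monocyte markers summed to 15.8 to 104 FPKM (3 of 7 reached 1 FPKM in 3 libraries, and Lyz2 alone was at 11.8 to 93.5 FPKM). The macrophage and monocyte sum was higher with cytokines in all 6 same-numbered pairs: in WT libraries 1, 2 and 3 it went from 66.3, 21.4 and 25.5 FPKM to 104, 30.0 and 45.2 FPKM. In Adcy10-/- libraries it went from 15.8, 21.5 and 17.6 FPKM to 22.3, 29.0 and 24.0 FPKM. Dendritic cell markers summed to 99.8 to 142 FPKM, of which Bst2, an interferon-induced gene of other cells too, made up 99.0 to 140 FPKM, and 2 of 8 reached 1 FPKM in 3 libraries. NK cell markers summed to at most 0.377 FPKM, CD8 T cell markers to 8.43 to 14.7 FPKM and the 3 neutrophil markers in the files to 0.652 to 60.0 FPKM, the last higher with cytokines in 5 of 6 pairs. The part of these cells in the levels of Irf8 and Irf5 was not tested.

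**Figure D3:**
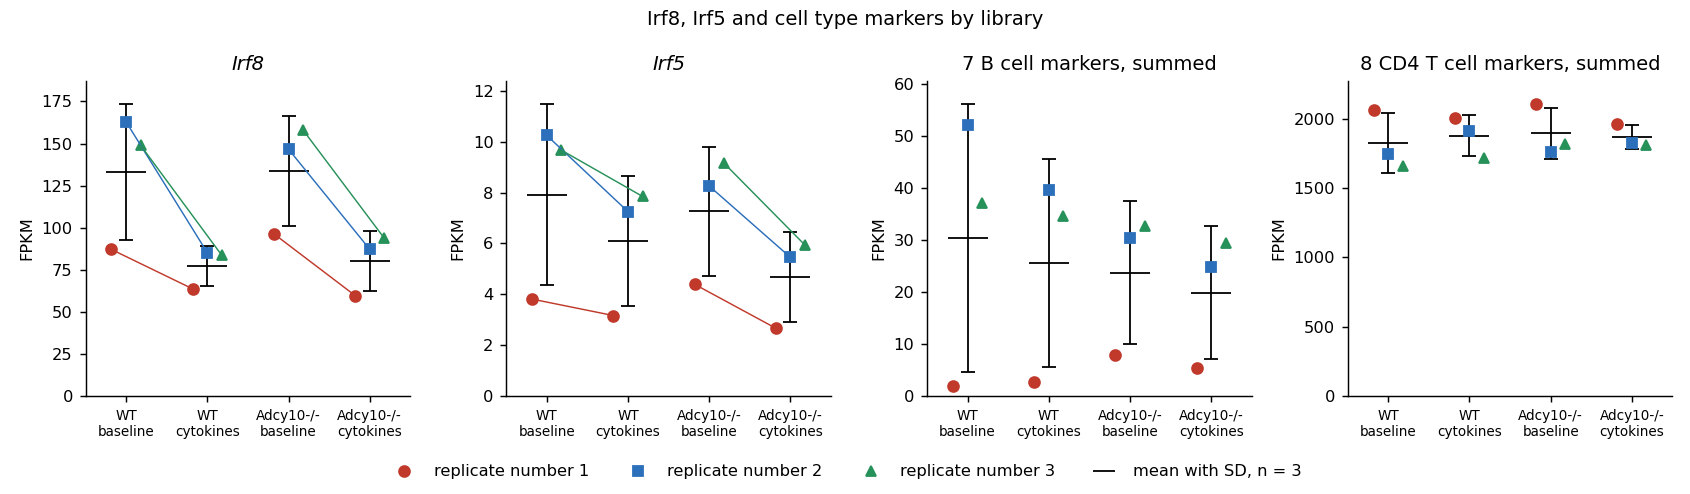
FPKM of Irf8, Irf5, the summed 7 B cell markers and the summed 8 CD4 T cell markers in each library by group, with lines that join libraries of the same replicate number and genotype for the 2 genes and bars for the mean and SD of 3 libraries. Every line of Irf8 and Irf5 falls, and the B cell sum of the libraries numbered 1 lies between 2.02 and 7.95 FPKM.

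Irf4, the IRF that Th17 cells need for their differentiation, did not change past the threshold, with intervals on either side of 0. In WT libraries 1, 2 and 3 it stood at 119, 145 and 163 FPKM at baseline and at 142, 135 and 160.2 FPKM with cytokines. In Adcy10-/- libraries it stood at 136, 136 and 139.7 FPKM at baseline and at 137, 152 and 149.9 FPKM with cytokines. The groups overlapped in both genotypes. The log2 change was 0.04 in WT cells (95% interval -0.17 to 0.26, limma adjusted p = 0.871) and 0.09 in Adcy10-/- cells (95% interval -0.13 to 0.31, limma adjusted p = 0.796). Changes of more than 0.31 in either direction lie outside both intervals.

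Irf3 and Irf7, the pair that act on type I interferon genes, showed no change past the threshold. Irf3, which is present before any stimulus, ranged from 40.6 to 46.1 FPKM over all 12 libraries, with log2 changes of -0.02 in WT cells (95% interval -0.14 to 0.11) and 0.03 in Adcy10-/- cells (95% interval -0.09 to 0.16). Irf7, itself an interferon-induced gene, ranged from 3.82 to 6.81 FPKM, with log2 changes of -0.04 (95% interval -0.46 to 0.39) and 0.01 (95% interval -0.41 to 0.44). Limma adjusted p-values ran from 0.883 to 0.991 for the pair. The groups of both genes overlapped in both genotypes. The interval of Irf7 is the wider by far, so only large changes of Irf7 fall outside it.

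Irf9, the DNA-binding part of ISGF3, and Irf2, which competes with IRF1 for the same sites, were higher in the libraries numbered 1. Irf9 stood at 20.4 to 22.95 FPKM in the 4 libraries numbered 1 and at 15.2 to 19.2 FPKM in the other 8. Irf2 stood at 30.88 to 37.2 FPKM in the former and at 26.1 to 30.86 FPKM in the latter, ranges that nearly touched. Irf5 lay in the opposite direction. The second principal component separated the same libraries, and the share of all genes that did so was not counted. With cytokines Irf9 changed by -0.03 in WT cells (95% interval -0.36 to 0.29, limma adjusted p = 0.943) and -0.07 in Adcy10-/- cells (95% interval -0.39 to 0.25, limma adjusted p = 0.922). Irf2 changed by -0.08 (95% interval -0.34 to 0.17, limma adjusted p = 0.774) and -0.10 (95% interval -0.35 to 0.16, limma adjusted p = 0.814). Neither gene passed with the replicate block.

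The genotype comparison asked whether loss of soluble adenylyl cyclase altered IRF expression. None of the 8 genes passed in either medium, nor did any of the 10126 genes (0.0% called in baseline medium, with cytokines, or averaged over media, by limma), while 118 genes at baseline and 202 with cytokines had an unadjusted p under 0.05. Both counts are smaller shares of the 10126 genes than 0.05. Irf1 was the 1 member among the 118, and 0 were among the 202. With the replicate block 3 genes, none of them a member, were called for genotype averaged over media (0.0296% of all genes). At baseline Irf1 stood at 131 to 146.1 FPKM in WT libraries and at 146.4 to 163 FPKM in Adcy10-/- libraries, without overlap, as 4.99% of all genes were. The log2 difference, Adcy10-/- minus WT, was 0.17 (95% interval 0.03 to 0.31, unadjusted p = 0.0244, limma adjusted p = 1.00), higher in 3 of 3 numbers. With cytokines the Irf1 difference was 0.03 (95% interval -0.12 to 0.17) and all 8 genes overlapped between genotypes, where 5.08% of all genes did not.

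Among the other members no genotype difference passed. Irf4 differed by -0.04 at baseline (95% interval -0.25 to 0.18) and by 0.01 with cytokines (95% interval -0.21 to 0.23). Irf8 differed by 0.03 (95% interval -0.54 to 0.59) and 0.04 (95% interval -0.53 to 0.60), so a difference of more than 0.60 in either direction lies outside both intervals. Irf5 was at 4.69 ± 1.76 FPKM in Adcy10-/- cells with cytokines and at 6.09 ± 2.55 FPKM in WT cells, lower in 3 of 3 numbers. With the replicate block, for which same-numbered libraries of the 2 genotypes with cytokines correlated at 0.262 to 0.422, the Irf5 difference was -0.30 (SE 0.08, 95% interval -0.47 to -0.12, unadjusted p = 0.00378, limma adjusted p = 0.835). It did not pass over all genes. Irf2 differed by 0.12 at baseline and 0.10 with cytokines, and Irf3 by 0.04 and 0.09. Both were higher in Adcy10-/- libraries in 3 of 3 numbers in both media. Irf9 differed by 0.08 and 0.04, higher in 3 of 3 numbers with cytokines only. The share of all genes with the same sign in 3 of 3 numbers was not counted, for these genes or for Irf1 and Irf5. Irf7 differed by -0.12 and -0.07, and its intervals reached from -0.55 to 0.35.

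The cytokine responses of the 2 genotypes were then compared by their interaction, the effect in Adcy10-/- minus that in WT. No member and no gene passed (0.0% called by limma, with 112 genes and 0 members at an unadjusted p under 0.05). The interaction was -0.14 for Irf1 (95% interval -0.34 to 0.06), 0.01 for Irf8 (95% interval -0.79 to 0.81), -0.23 for Irf5 (95% interval -1.47 to 1.00) and 0.05 for Irf4 (95% interval -0.26 to 0.35). With the replicate block the interaction of Irf8 had a 95% interval of -0.24 to 0.26, inside the size of its fall in each genotype, as was the interval of Irf1 in both fits. For Irf5 the blocked interval was -0.48 to 0.02. With the block within genotype it was -0.43 to -0.04 (limma unadjusted p = 0.0258, limma adjusted p = 0.992). In that fit 1 of the 8 genes, Irf5, and 389 of all 10126 genes had an interaction at an unadjusted p under 0.05. The 389 are a smaller share of all genes than 0.05.

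Genes around the IRFs were described by lists, whose members and counts stand beside the background shares given above. The list of known IRF1 targets held genes of class I antigen presentation, GBP and IRG GTPases and a few others, such as Cd274 and Il12rb1. Of its 25 tested genes, 16 fell with cytokines in WT cells and 19 in Adcy10-/- cells, and 0 rose in either. Their median log2 change was -0.33 and -0.41, against -0.01 and -0.02 for all genes tested. The guanylate-binding protein gene Gbp6 went from 13.1 ± 0.531 to 6.16 FPKM in WT cells (log2 change -0.99, SE 0.12, limma adjusted p = 0.00143), and the GTPase genes Iigp1 and Gbp4 fell by 0.94 and 0.88. The immunoproteasome gene Psmb9 (-0.34), the peptide transporter gene Tap1 (-0.33), the class I transactivator gene Nlrc5 (-0.53) and Cd274, which encodes PD-L1 (-0.57), were among the others that fell in WT cells, named after their values were seen. Gbp2, at 0.28 in WT and 0.21 in Adcy10-/- cells, and Il12rb1, at 0.33 and 0.30, did not pass. The WT count was 7 without WT baseline library 2 and 10 without WT cytokine library 1. With the replicate block 20 fell in each genotype, and 1 rose in WT cells.

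Of 27 tested antiviral genes known as targets of ISGF3 and IRF7, a list that shares 0 genes with the former, 2 fell in each genotype and 0 rose, with a median log2 change of -0.08 in both. They were Ifit1, which encodes a binder of viral RNA (-0.88 in WT and -1.08 in Adcy10-/- cells), and Ifi47 (-0.59 and -0.63). Ifi47 encodes a GTPase, as the GBP and IRG genes of the former list do. In the blocked fit 8 fell in each genotype. Many of the antiviral genes were low, where log2(FPKM + 1) understates changes: 15 of the 27 reached 5 FPKM in at least 3 libraries. In the fit of genes at that level 1 of these 15 fell in each genotype. Of the 23 IRF1 targets in that fit, 16 fell in WT and 18 in Adcy10-/- cells. The numbers of antiviral genes called without the libraries numbered 1 were 1 and 2 of 26 tested, and 4 fell in Adcy10-/- cells without WT baseline library 1 and in both genotypes without WT baseline library 3.

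**Figure D4:**
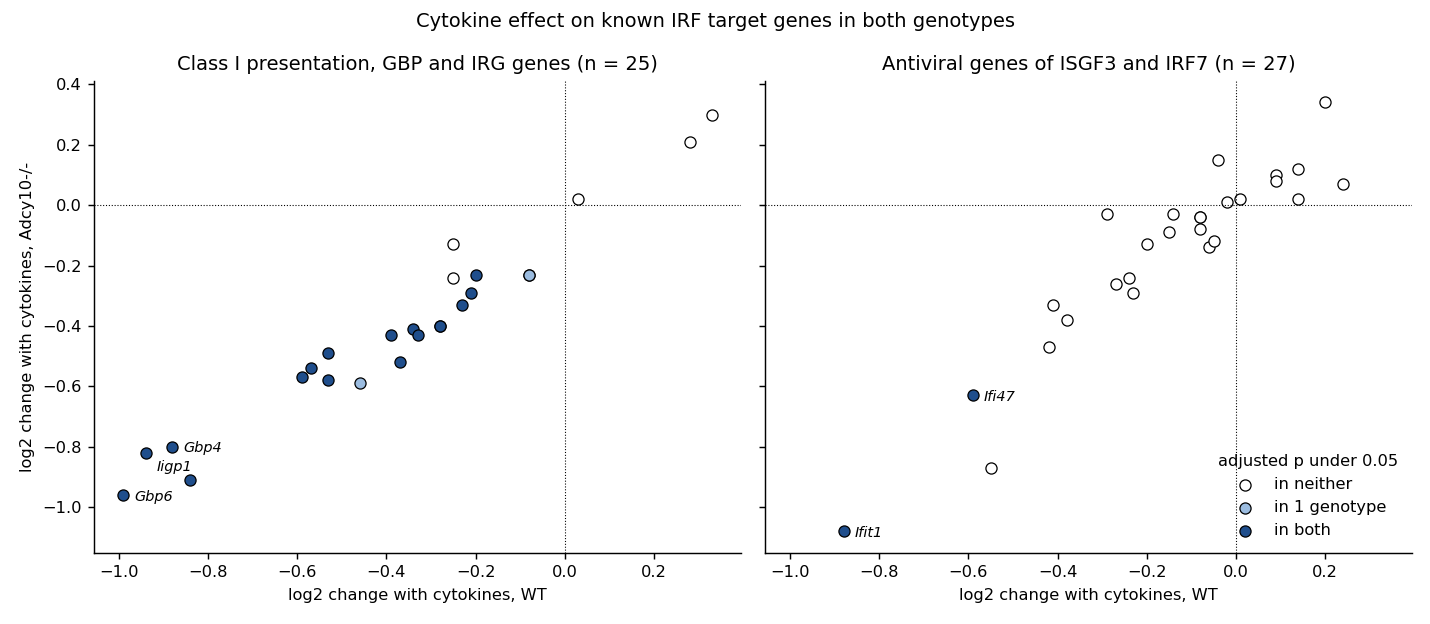
Log2 change with cytokines in WT (horizontal axis) and in Adcy10-/- cells (vertical axis) of 25 known IRF1 target genes (left) and 27 known ISGF3 and IRF7 target genes (right), each point a gene, filled by the number of genotypes in which its limma adjusted p is under 0.05. On the left 16 genes passed in WT and 19 in Adcy10-/- cells, and on the right 2 in each. Points of genes with equal values lie on top of each other.

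The signals that feed the IRFs were mixed. Of 9 interferon genes listed, Ifng passed the filter: it was at 21.8 to 122 FPKM over the libraries, with a log2 change of -0.81 in WT (SE 0.59, limma adjusted p = 0.517) and -0.89 in Adcy10-/- cells (limma adjusted p = 0.58), and it fell in both with the replicate block. Leaving out 1 library moved the Ifng change to between -1.44 (without WT baseline library 1) and -0.35 (without WT baseline library 2) in WT cells. In Adcy10-/- cells it lay between -1.40 (without Adcy10-/- baseline library 1) and -0.47 (without Adcy10-/- baseline library 2). Another 7, Ifnb1 among them, were listed at 0 in all 12 libraries, and Ifna1 in 11. Of 12 tested genes of interferon receptors and JAK-STAT signaling, the kinase gene Jak2 (0.60, limma adjusted p = 0.0136) and the feedback inhibitor gene Socs1 (0.62, limma adjusted p = 0.0454) rose in WT cells. In Adcy10-/- cells Jak2 rose (0.60, limma adjusted p = 0.0149) and Socs1 was at 0.57 (limma adjusted p = 0.0691). With the replicate block Socs1 rose in both genotypes. In WT cells 0 of the 12 rose without WT baseline library 2 or without WT cytokine library 1. In Adcy10-/- cells 0 rose without any of Adcy10-/- baseline libraries 1 and 3 and Adcy10-/- cytokine libraries 2 and 3. With the block 5 rose and 3 fell in WT cells, and 4 and 3 in Adcy10-/- cells. Of 18 tested sensors and kinases upstream of IRF3, IRF5 and IRF7, the adaptor gene Tank fell (-0.36 and -0.33) and 0 rose, and leaving out 1 library at a time gave 0 to 2 that fell. The block gave 1 that rose (Myd88, named after its values were seen, limma adjusted p = 0.0499) and 4 that fell in WT cells, and 0 and 2 in Adcy10-/- cells.

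Some inputs and partners of IRF4 changed while Irf4 did not pass. Of 22 tested signaling and transcription factor genes downstream of the T cell receptor, 1 rose and 4 fell in each genotype. The blocked fit gave 2 that rose and 7 that fell in WT cells, and 2 and 8 in Adcy10-/- cells. Malt1, a paracaspase of NF-kB activation, rose by 1.46 in WT and 1.64 in Adcy10-/- cells, and the immediate early genes Nr4a3 (-1.12 and -1.08) and Egr3 (-0.72 and -0.82) fell. Nr4a2 was also among those that fell in WT cells (-0.44) and Nfkb1 in Adcy10-/- cells (-0.32), and both were named after their values were seen. With the replicate block each of them fell in both genotypes. The number that fell was 1 or 2 in WT cells without any of WT baseline libraries 2 and 3 and WT cytokine libraries 1 and 2. It was 1 or 2 in Adcy10-/- cells without any of Adcy10-/- baseline libraries 1 and 3 and Adcy10-/- cytokine libraries 1 and 2. Of 20 tested partners and corepressors, Batf, the AP-1 partner of IRF4, rose by 0.97 in WT cells (SE 0.25, limma adjusted p = 0.0497) and was at 0.96 in Adcy10-/- cells (limma adjusted p = 0.0571). With the replicate block Batf rose in both genotypes (limma adjusted p = 0.00576 and 0.00633). In Adcy10-/- cells Bcl6 rose (0.54) and Irf2bp2, a corepressor gene named for IRF2 (-0.38), and Tcf3 (-0.32, named after its values were seen) fell. The WT values of these 3 were 0.32, -0.27 and -0.18 and did not pass without the block. With the replicate block all 3 passed in WT cells too (limma adjusted p = 0.00677, 0.031 and 0.0221). Leaving out 1 library at a time gave 0 to 2 that rose in each genotype, and 0 fell in Adcy10-/- cells without Adcy10-/- baseline library 3. The numbers with the block were 4 higher and 4 lower in WT cells, and 3 and 4 in Adcy10-/- cells.

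Of 19 tested Th17 and effector genes known to be bound by BATF and IRF4 together, 7 rose and 1 fell in each genotype, with median log2 changes of 0.63 and 0.65. Of all genes 2.65% rose in WT and 2.14% in Adcy10-/- cells, or 7.41% and 4.74% with the replicate block, under which 10 and 9 of the 19 rose. Il21 rose by 3.43 in WT and 3.53 in Adcy10-/- cells, and the inhibitory receptor gene Tigit by 1.26 and 1.10. Irf4 itself, at log2 changes of 0.04 and 0.09, did not pass in the same comparisons.

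Members were last compared by their pattern over the 12 libraries, as Pearson correlations of log2(FPKM + 1). The libraries share their media, genotypes and replicate numbers, so these values are descriptions. Irf2 and Irf9 had the highest correlation among the members (0.91), followed by Irf5 and Irf8 (0.86) and Irf1 and Irf8 (0.76), and Irf4 and Irf9 had the lowest (-0.79). Among all tested genes with a mean of at least 5 FPKM, those most like Irf1 were Zfpm1, Litaf and Tbc1d5 (all 0.98), and those most like Irf8 were Pold1 (0.98), Klf16 (0.97) and Ampd2 (0.97). The nearest to Irf5 were Ehd1 (0.98), Cdv3 (0.97) and Hspa8 (0.97), and to Irf2 were Sepp1 (0.99), Rnf166 (0.97) and Pitpnc1 (0.96). The nearest to Irf9 were Phf1 (0.95), Tsc22d3 (0.94) and Tmem134 (0.94), and to Irf4 were Clcn3 (0.89), Ubqln1 (0.87) and Rbm12 (0.87). Irf7, with Acot8 (0.85), Aff3 (0.79) and Tmem80 (0.79), and Irf3, with Enthd2 (0.76), Lsm2 (0.76) and BC003965 (0.75), had no neighbour as close.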

How the data were processed

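Polyadenylated RNA of cultured mouse CD4+ T cells was sequenced in 12 libraries, 3 in each of 4 groups taken from the sample labels. The authors deposited 1 file of FPKM per library. Per the submitters' processing notes, STAR 2.4.0f1, SAMtools 0.1.19, Cufflinks and HTSeq were used with the mm9 build; further settings are not given in the sources used here. FPKM holds no counts, so no count test was run. Each file held 24488 entries for 23991 names, and entries of the 258 names listed several times were summed.

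Values were taken as log2(FPKM + 1), and the 10126 genes at 1 FPKM or more in at least 3 libraries entered a model of 4 group means in limma 3.58.1 (R 4.3.3) with a variance trend, with p-values adjusted by Benjamini-Hochberg over all of them and a threshold of 0.05. Other steps ran in Python 3.11.15 (matplotlib 3.10.9, numpy 2.4.6, pandas 2.3.3). Whether replicate numbers pair libraries was checked on deviations from group means: same-numbered libraries correlated at 0.294 to 0.536 within a genotype (6 pairs), at 0.262 to 0.422 between genotypes with cytokines (3 pairs) and at 0.074 to 0.523 at baseline (3 pairs). The block was therefore reported beside the effects of cytokines and, in cytokine medium, of genotype. On simulated data with 200 changed genes among 10126, the fit for the WT cytokine effect recovered 88% of genes changed 1.5-fold and 100% of those changed 2-fold. Noise was independent between libraries, unlike the deviations shared by replicate number, and the changed genes were drawn from those above about 5 FPKM. The shares hold for these genes as a whole, not for a single member.

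The members and gene lists were chosen with earlier results of these data known. All 8 members are named, with up to 3 genes of each list (the largest passing changes, or the smallest p) and the 3 genes most correlated with each member. Other genes are named as chosen after their values were seen. Some genes within the rule are not reported here. Alternatives changed the pseudocount, filter, scaling, variance trend, entries per gene, samples fitted and block, and left out each library or all libraries numbered 1.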

Additional observations from a re-analysis of the deposited data

How the results depend on the processing

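Irf1 was called lower with cytokines in both genotypes under all alternatives run. Irf8 and Irf5 depended on the replicate block and on the libraries numbered 1, and no member passed for genotype or interaction under any alternative. The count of all genes called for the WT cytokine effect was 275 with only those groups fitted. With the replicate block it was 1502, and 1574 with the block within genotype. For the Adcy10-/- cytokine effect the counts were 1086 and 1193, and 3 members were called in each genotype in both of these fits. The block called 3 genes for genotype averaged over media, none of them a member, and changed no other call on a member. Without the 4 libraries numbered 1, an alternative added after seeing the data, 219 genes were called for the Adcy10-/- cytokine effect, or 275 with the block. Members called were then 2 in WT and 3 in Adcy10-/- cells, or 3 and 3 with the block. In these fits 2 genes were called for genotype with cytokines, 2 or 3 averaged over media and 1 or 2 for the interaction, without and with the block. Uncalled log2 changes that changed sign there, to the same values with and without the block, were Irf4 at -0.06 and Irf9 at 0.03 for the WT cytokine effect and Irf7 at -0.06 for the Adcy10-/- one. For genotype they were Irf7 at 0.08 and Irf8 at -0.03 at baseline, Irf7 at 0.06 with cytokines and 0.07 averaged, and for the interaction Irf7 at -0.02. With quantile normalization the averaged Irf4 difference was 0.00. The cause of these changes was not tested.

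Leaving out 1 library at a time gave 164 to 536 genes for the WT cytokine effect, lowest without WT baseline library 2 and next 257 without WT cytokine library 1 and 325 without WT cytokine library 2. It gave 202 to 466 genes for the Adcy10-/- effect, where each of Adcy10-/- baseline libraries 1 and 3 and Adcy10-/- cytokine libraries 1, 2 and 3 left out brought the count to 287 or less. Members called were 1 to 2 in WT cells, Irf8 being the other without WT baseline library 1 (limma adjusted p = 0.038), and 1 in Adcy10-/- cells. For genotype with cytokines, its average and the interaction the counts were 0 to 1 gene. Irf1 passed in 12 of 12 of these fits in both genotypes. No called change reversed, but uncalled ones did, over these ranges. For the WT cytokine effect these were Irf2 -0.18 to 0.04, Irf3 -0.07 to 0.01, Irf4 -0.08 to 0.14, Irf5 -0.70 to 0.04, Irf7 -0.20 to 0.14, Irf9 -0.15 to 0.13. For the genotype effect at baseline these were Irf4 -0.16 to 0.06, Irf5 -0.46 to 0.22, Irf7 -0.26 to 0.03, Irf8 -0.25 to 0.24, Irf9 -0.04 to 0.24. For the Adcy10-/- cytokine effect these were Irf7 -0.08 to 0.15, Irf9 -0.16 to 0.02. For the genotype effect with cytokines these were Irf1 -0.01 to 0.07, Irf4 -0.04 to 0.08, Irf7 -0.25 to 0.09, Irf8 -0.10 to 0.23, Irf9 -0.05 to 0.14. For the genotype effect averaged over media these were Irf4 -0.07 to 0.04, Irf8 -0.11 to 0.14, Irf9 0.00 to 0.14. For the interaction these were Irf2 -0.14 to 0.08, Irf4 -0.06 to 0.17, Irf5 -0.58 to 0.16, Irf7 -0.13 to 0.21, Irf8 -0.21 to 0.29, Irf9 -0.20 to 0.08.

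FPKM gives no absolute depth, so no interval for counting error is given, and the number of libraries limits precision. Median-ratio scaling moved the median change of all genes by at most 0.016.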
